A study of Homo sapiens with 12 samples.

Results

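The matrix metalloproteinases (MMPs), the ADAM and ADAMTS proteinases and the tissue inhibitors of metalloproteinases (TIMPs) were examined in SK-UT-1, an established human uterine leiomyosarcoma cell line. Members were every symbol of the expression table that reads MMP, ADAM, ADAMTS, ADAMTSL or TIMP followed by a number, which 71 symbols did. The antisense or readthrough symbols ADAMTSL4-AS1, MMP24OS and MMP24-AS1-EDEM2 were left out. This gave 68 of the 22784 symbols: 19 MMP, 21 ADAM, 19 ADAMTS, 5 ADAMTSL and 4 TIMP symbols. Of the 71 protein-coding genes that Gencode V44 annotates in these families, 61 were among the members, and ADAM2, ADAM18, ADAM30, ADAMTS12, ADAMTS18, MMP8, MMP11, MMP20, MMP26 and MMP27 were not analysed here. The other 7 members are pseudogenes or symbols with several identifiers.

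The study asked how inhibition of the BET bromodomain proteins, which bind acetylated histones, alters the transcriptome of these cells. One group received the vehicle, DMSO, another 5 µM JQ1 and the last 5 µM I-BET 762, each for 48 h. JQ1 and I-BET 762 both bind the acetyl-lysine pocket of BET bromodomains. Both carry a triazole fused to a diazepine ring, which is joined to a thiophene in JQ1 and to a benzene ring in I-BET 762. All libraries come from this 1 cell line. The labels list 4 libraries a group, and 10 were analysed here: DMSO replicates 13, 14 and 15, JQ1 replicates 17 to 20, and I-BET 762 replicates 21, 22 and 23. DMSO replicate 16 and I-BET 762 replicate 24 were not analysed here. The sources do not say whether replicates were separate cultures, so the p-values below measure the spread between these libraries, which may be technical.

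MMPs are zinc proteinases that cut collagens, other matrix proteins and each other, and most are secreted as inactive precursors whose prodomain must be removed. A subset stays on the cell surface, among them MMP14, which cuts fibrillar collagen and converts the MMP2 precursor to its active form together with TIMP2. ADAM proteinases are membrane proteins that release the outer part of other membrane proteins, such as EGF receptor ligands, while several ADAMs lack the catalytic site and act as adhesion proteins or receptors. The ADAMTS enzymes are secreted and process procollagens, proteoglycans or fibrillin microfibrils, the ADAMTS-like proteins share their ancillary domains without the proteinase, and TIMPs bind and block MMPs and some ADAM and ADAMTS enzymes. In uterine smooth muscle tumours, which are rich in extracellular matrix, these enzymes and inhibitors take part in how matrix is laid down and removed.

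The table was deposited on a log2 scale, with 1 added to each normalized count, and was turned back into normalized counts, which are read counts divided by a scaling factor for each library. Reads on genes numbered between 35564586 and 39658989 per library, and 3 reads, the most that a count of 0 allows, corresponded to 2.73 to 3.30 normalized counts, with counting error alone considered. A symbol was tested when at least 3 libraries had a normalized count of 10 or more, which 14839 symbols and 36 of the 68 members met. Each difference was tested by limma on the log2 values with Benjamini-Hochberg adjustment over the 14839 symbols, and every adjusted p below comes from it. A gene was called when its adjusted p was under 0.05 and its fold change exceeded 1.5, that is 0.585 on the log2 scale. When library totals were made equal, the median log2 change of all tested genes shifted to −0.18 with JQ1, from 0.01, and to −0.097 with I-BET 762, from −0.00063. Over all genes, the 1979 calls higher and 3379 lower with JQ1 then became 1222 and 4217, and the 1329 and 2662 with I-BET 762 became 994 and 3064.

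The cell label was checked on markers chosen for it. Of 10 smooth muscle markers, 9 had a row, and the sum of their normalized counts was 20923 to 21518 in the DMSO libraries, 10872 to 11519 with JQ1 and 12192 to 12764 with I-BET 762. All treated libraries were below all DMSO libraries for 7 of the 9 with JQ1 and 6 with I-BET 762 and above them for 0. The matching shares over all genes were not computed. SMTN, the smoothelin gene, had 2132 to 2573 with DMSO, 2343 to 2885 with JQ1 and 2568 to 2740 with I-BET 762. DES, the muscle intermediate filament gene, was between 187 and 188 with DMSO and between 2.18 and 14.2 with JQ1, and MYOCD, the smooth muscle coactivator gene, had at most 1.10 in any library. The sum of 7 fibroblast genes, mostly collagen, was 44840 to 51136 with DMSO, 11976 to 15779 with JQ1 and 17973 to 19857 with I-BET 762, while DCN and LUM were near 0 throughout. A list of 5 epithelial genes summed to 1212 to 1271 with DMSO, 511 to 602 with JQ1 and 497 to 544 with I-BET 762. Leukocyte and endothelial lists summed to at most 38.8 in any library, with PTPRC at or under 0.98 and CDH5 at or under 1.85. These shifts accompany the changes below, and their part in them was not tested. In RNA from whole cultures, fewer cells that express a gene and less of its RNA per cell cannot be told apart.

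The promoter sequences of the inhibitors and surface MMPs that carried the main results, except MMP17, which had no promoter window, are shown before the values. Those of MMP7 and MMP10, the untested MMPs with an AP-1 motif among those that had a promoter window, are shown too. They are the 250 bases before the RefSeq start (GRCh38.p14), written 5′ to 3′ on the gene's strand. Capitals mark GGGCGG, the GC box bound by SP1 family factors, or TGANTCA, the motif of AP-1 factors, on either strand. MMP14 lies at chr14:22836335-22836584 (plus strand), MMP24 at chr20:35226440-35226689 (plus), TIMP1 at chrX:47582186-47582435 (plus), TIMP3 at chr22:32801455-32801704 (plus), MMP7 at chr11:102530748-102530997 (minus) and MMP10 at chr11:102780629-102780878 (minus).
MMP14: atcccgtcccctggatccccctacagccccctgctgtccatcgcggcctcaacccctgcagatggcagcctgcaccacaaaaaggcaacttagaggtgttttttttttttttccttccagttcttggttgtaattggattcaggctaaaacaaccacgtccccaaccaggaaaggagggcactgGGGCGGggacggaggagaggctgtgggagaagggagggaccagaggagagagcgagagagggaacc
MMP24: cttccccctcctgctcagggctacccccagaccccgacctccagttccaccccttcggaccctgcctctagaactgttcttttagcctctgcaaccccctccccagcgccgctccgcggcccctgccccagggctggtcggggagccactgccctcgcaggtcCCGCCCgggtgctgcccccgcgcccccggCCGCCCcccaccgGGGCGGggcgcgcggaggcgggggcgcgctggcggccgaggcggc
TIMP1: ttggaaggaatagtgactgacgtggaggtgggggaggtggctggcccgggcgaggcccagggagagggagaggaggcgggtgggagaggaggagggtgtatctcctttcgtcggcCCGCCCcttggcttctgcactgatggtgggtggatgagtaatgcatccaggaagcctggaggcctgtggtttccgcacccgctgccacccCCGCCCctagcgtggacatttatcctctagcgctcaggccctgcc
TIMP3: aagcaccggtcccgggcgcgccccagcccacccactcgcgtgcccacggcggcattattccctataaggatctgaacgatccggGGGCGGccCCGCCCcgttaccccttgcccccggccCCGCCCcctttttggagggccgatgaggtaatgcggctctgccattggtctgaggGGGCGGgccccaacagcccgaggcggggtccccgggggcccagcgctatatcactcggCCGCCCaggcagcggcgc
MMP7: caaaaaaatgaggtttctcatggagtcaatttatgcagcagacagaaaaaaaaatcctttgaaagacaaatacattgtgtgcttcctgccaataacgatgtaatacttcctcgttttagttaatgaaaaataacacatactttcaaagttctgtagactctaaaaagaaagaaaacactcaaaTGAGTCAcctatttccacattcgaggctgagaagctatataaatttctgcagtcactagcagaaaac
MMP10: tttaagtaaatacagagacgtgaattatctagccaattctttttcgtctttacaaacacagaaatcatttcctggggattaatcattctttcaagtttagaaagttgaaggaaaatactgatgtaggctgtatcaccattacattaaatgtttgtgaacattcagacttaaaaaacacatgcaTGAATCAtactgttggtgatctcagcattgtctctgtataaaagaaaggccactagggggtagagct

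In MMP7 and MMP10 the first base of the AP-1 motif lay 67 bases before the start. The promoter table held a window for 36 of the 68 members. The untested MMP1, MMP3, MMP12, MMP13, MMP25 and MMP28 had no window, so they were not searched for any motif. TGANTCA, searched on both strands, was in 6.57% of all 35116 windows, in 0 of 24 windows of tested members and in 2 of 13 windows of members below the filter. GGGCGG and TATAAA, the TATA box motif, were chosen after values had been seen and were searched on both strands too. GGGCGG was in 42.6% of all windows, in 21 of the 24 windows of tested members (87.5%) and in 6 of the 13 below the filter (46.2%). TATAAA was in 10.7% of all windows, in 1 of the 24 and in 4 of the 13. The median GC content was 58% over all windows, 74.2% for tested members and 60% for the others. These matches are descriptions of the letters and say nothing about binding in these cells.

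Levels between genes were compared as normalized counts per kb of annotated exon, where exon length is the union over all transcripts of Gencode V44. With DMSO, the highest level among the 36 tested members was that of an inhibitor, TIMP1, at 1694 ± 47.3 (SD, n = 3) per kb. MMP14 came next with 1036 ± 69.8, the highest level per kb among the proteinases, followed by ADAM15 with 899.6 ± 24.4. This order rests on the length used. By mean normalized count with DMSO, ADAM9 (10579), ADAM10 (9261) and ADAM15 (5923) stood above MMP14 (4791.5). The exon unions are 17.7 kb for ADAM9 and 16 kb for ADAM10, beside 4.62 kb for MMP14, and may exceed the length of any single transcript. ADAM9, TIMP2 and ADAM10, at 598 ± 24, 592 ± 28.6 and 579.6 ± 8.22, could not be ordered beyond their spread. MMP24 at 407 ± 6.46 and the TNF-releasing sheddase gene ADAM17 at 230.4 ± 9.79 came after them. Below these, levels ran from 170.1 ± 15.7 for ADAMTSL1 down to 0.849 ± 0.498 for ADAMTS1. The proteinase genes with the highest levels thus encode surface proteins, and the secreted MMPs that passed the filter, MMP2, MMP19 and MMP9, had 7.21 ± 0.528, 6.38 ± 0.696 and 5.06 ± 1.11 per kb.

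**Figure D1:**
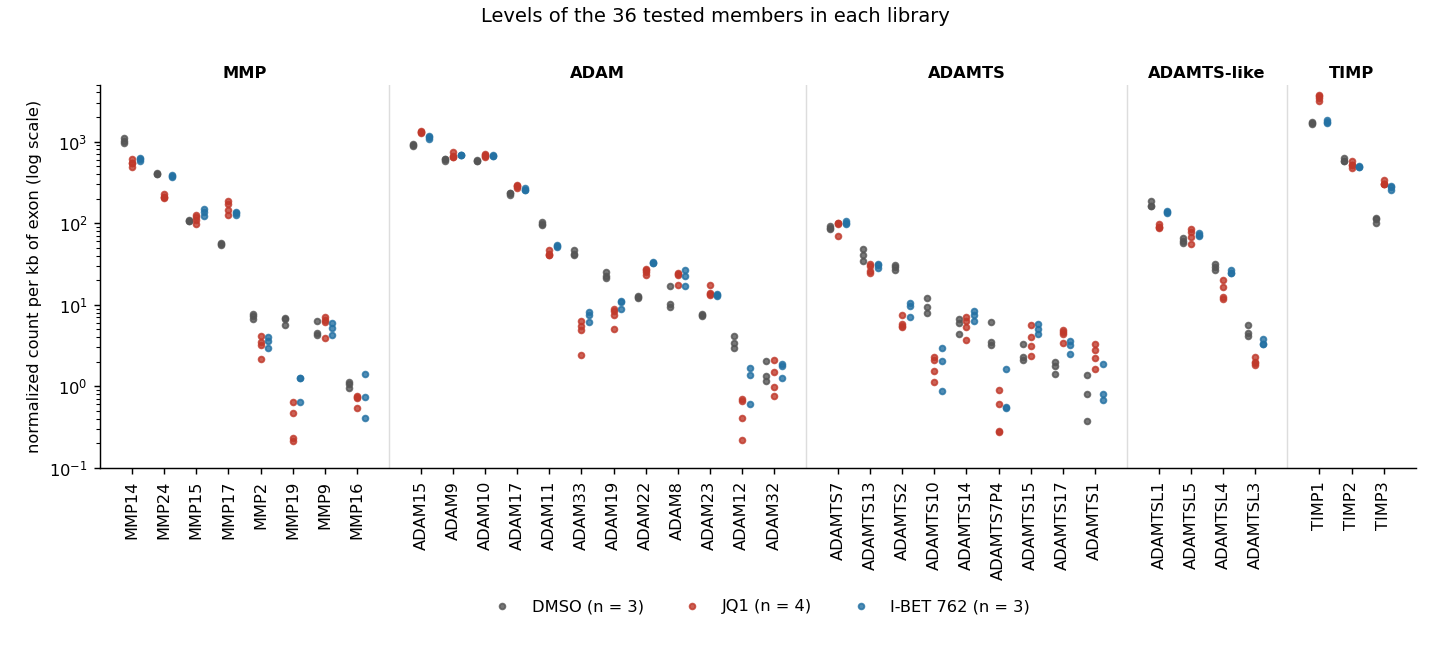
Normalized count per kb of exon (log axis) of the 36 tested members in each of the 10 libraries, grouped by family and ordered within a family by the DMSO mean. Each point is 1 library, grey for DMSO, red for JQ1 and blue for I-BET 762. TIMP1, MMP14 and ADAM15 stand at the top with DMSO, and MMP19 and ADAM33 have treated libraries well below their DMSO libraries.

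With JQ1, 22 of the 36 tested members were called against DMSO, 8 higher and 14 lower. That is 61.1% of those tested, beside 36.1% of all tested genes (13.3% higher, 22.8% lower). With I-BET 762, 17 were called, 7 higher and 10 lower, which is 47.2% beside 26.9% of all tested genes (8.96% higher, 17.9% lower). ADAM8, ADAM22, ADAM23, ADAMTS17, MMP17 and TIMP3 rose with both inhibitors, 6 of 36 where 7.86% of all genes did. ADAM11, ADAM12, ADAM19, ADAM33, ADAMTS2, ADAMTS10, MMP2 and MMP14 fell with both, and the pseudogene ADAMTS7P4 and MMP19 were also called lower with both, 10 of 36 where 16.7% of all genes were. In all of these 16, no treated library overlapped the range of the DMSO libraries. This describes genes already selected by their call, and the share without overlap over all genes was not computed. The median log2 change of the tested members was −0.12 with JQ1 and 0.04 with I-BET 762, beside 0.01 and −0.00063 over all genes, and is the same with MMP19 and ADAMTS7P4 at the bounds given for them below. The inhibitors share the DMSO libraries, so their lists are not independent of each other.

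ADAMTS7P4 and MMP19 passed the filter only through the DMSO libraries and so had to be lower after treatment, and their values against DMSO are given as descriptions with no test. Without them the counts lower were 12 of 34 with JQ1, 8 with I-BET 762 and 8 with both. ADAM12 and ADAMTS1 also leaned on a single group to pass. Outside DMSO, ADAM12 reached 10 only with I-BET 762, at 13.8 and 16.7, fewer libraries than the 3 needed. Outside JQ1, ADAMTS1 did so only in DMSO replicate 15 (10.01) and I-BET 762 replicate 23 (13.8). The filter favoured the direction of both, which limits their adjusted p-values and their places in these counts. ADAM10, ADAM15, ADAM17, ADAM9, ADAM32, ADAMTS7, ADAMTS13, ADAMTS14, ADAMTSL5, MMP9, MMP15, MMP16 and TIMP2 were called with neither inhibitor, with log2 changes between −0.56 and 0.55. Several of these passed the adjusted p threshold with a change under 1.5-fold, as given below. No called value changed sign under the 18 or 19 alternatives run for it.

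**Figure D2:**
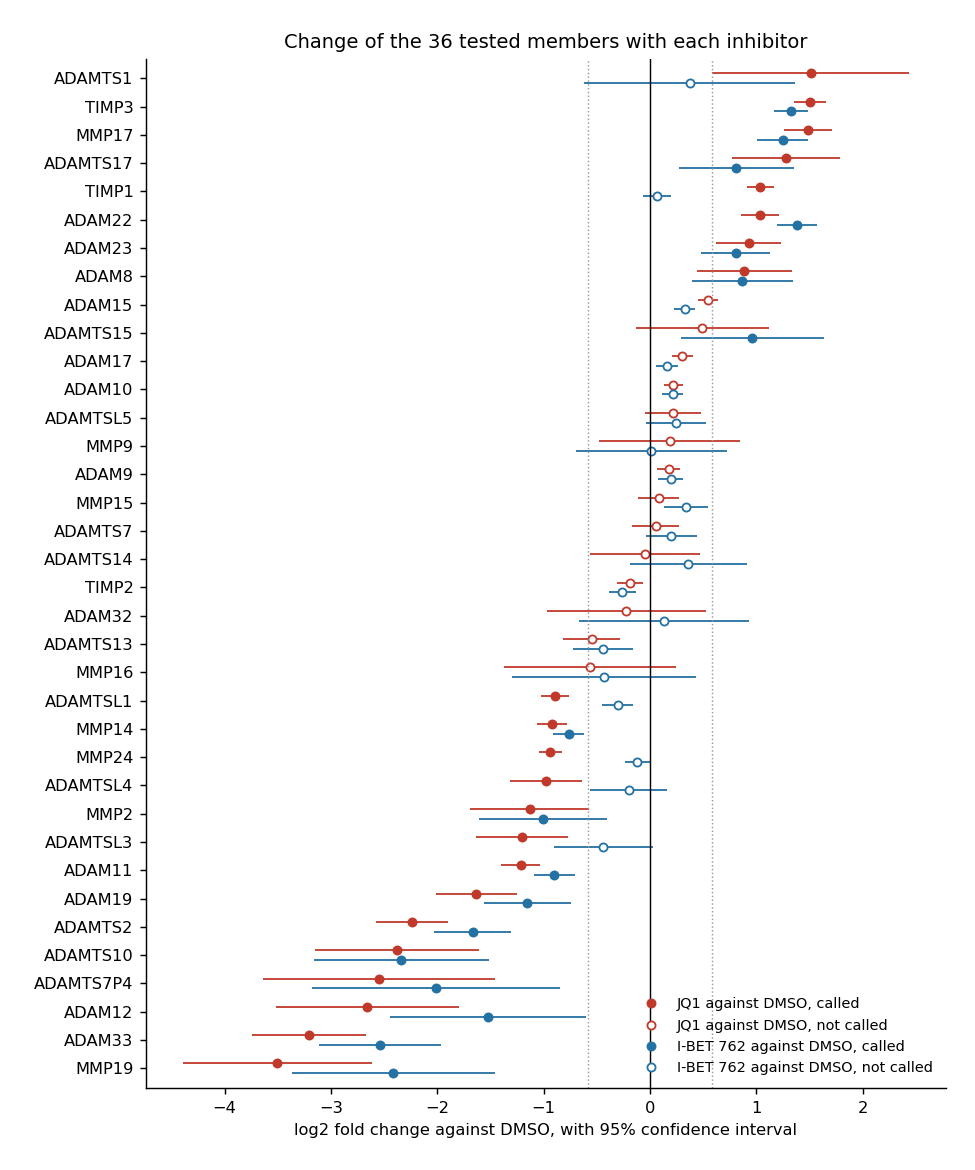
Log2 fold change against DMSO, with 95% confidence intervals, of the 36 tested members with JQ1 (red) and I-BET 762 (blue), ordered by the JQ1 value. Filled circles were called, open circles were not, and dotted lines mark the 1.5-fold threshold. TIMP1, MMP24, ADAMTSL1, ADAMTSL3 and ADAMTSL4 have a filled red circle beside an open blue circle closer to 0. The JQ1 values of MMP19 and ADAMTS7P4 are fitted against libraries at the floor and are not bounds.

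Among the MMPs held at the cell surface, the collagen-cutting MMP14 fell with both inhibitors, MMP17 rose with both and MMP24 fell with JQ1. MMP14 (ENSG00000157227.14, chromosome 14, 22836560 to 22849041) had normalized counts of 5131, 4489 and 4754 with DMSO, 2552, 2262, 2539 and 2803 with JQ1, and 2902, 2844 and 2697 with I-BET 762. Every treated library was below every DMSO library, and the treated groups overlapped each other. The log2 change was −0.92 (SE 0.066, adjusted p = 3.97e-09) with JQ1 and −0.77 (SE 0.071, adjusted p = 1.50e-07) with I-BET 762, falls of 1.89-fold and 1.7-fold. MMP17 (ENSG00000198598.7, chromosome 12, 131828393 to 131851783), which is tethered by a lipid anchor and not by a transmembrane domain, counted 228, 223 and 217 with DMSO, 685, 507, 740.3 and 587 with JQ1, and 540.2, 507 and 541 with I-BET 762. All treated libraries were at 507 or more and all DMSO libraries at 228 or less. Its log2 change was 1.48 (SE 0.11, adjusted p = 3.49e-09) with JQ1 and 1.25 (SE 0.11, adjusted p = 1.23e-07) with I-BET 762.

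MMP24 (ENSG00000125966.10, chromosome 20, 35226690 to 35276998), best known from the nervous system, separated the inhibitors. It counted 1813, 1767 and 1762 with DMSO, 902, 908, 922 and 987 with JQ1, and 1636, 1605 and 1680.4 with I-BET 762. The JQ1 libraries were all at 987 or less, while the I-BET 762 libraries lay just under the DMSO libraries without overlapping them. The log2 change was −0.94 (SE 0.052, adjusted p = 1.75e-10) with JQ1 and −0.12 (SE 0.055, adjusted p = 0.076) with I-BET 762. Of its 4376 exon bases, 806 are shared with MMP24OS on the opposite strand, which had means of 591, 1248 and 1197 with DMSO, JQ1 and I-BET 762. The libraries keep strand, but the sources used here do not give the strand setting of the counting, so the part of this overlap in the MMP24 counts was not tested. MMP15, a transmembrane MMP, had 452 ± 7.37 with DMSO, 481 ± 51 with JQ1 and 574 ± 56.4 with I-BET 762, with log2 changes of 0.084 and 0.34, the latter with an adjusted p of 0.00644. MMP16, another transmembrane MMP, was scarce at 12.7 ± 1.03 with DMSO, 8.36 ± 1.19 with JQ1 and 10.3 ± 6.18 with I-BET 762 and had wide intervals of −1.37 to 0.25 and −1.29 to 0.43. MMP25, the remaining surface MMP, reached 10 in fewer than 3 libraries and was not tested.

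**Figure D3:**
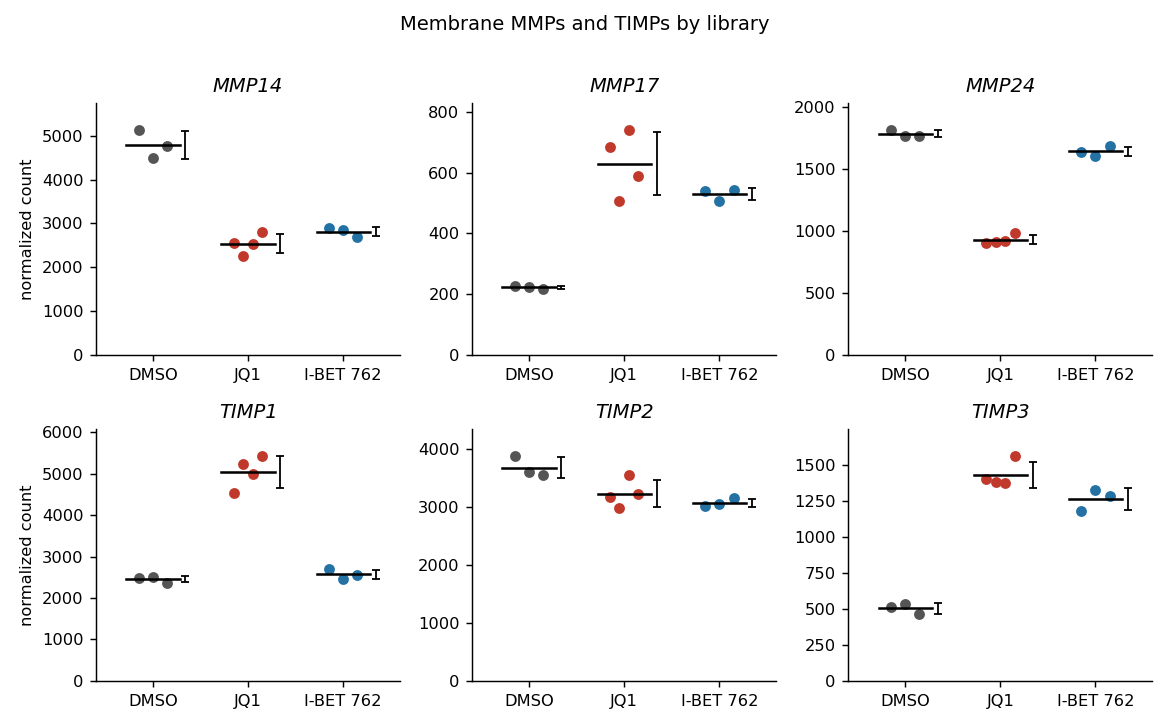
Normalized counts (linear axes from 0) of MMP14, MMP17, MMP24, TIMP1, TIMP2 and TIMP3 in each library. Points are libraries, horizontal lines are group means and side bars are ± 1 SD. MMP14 is lower and MMP17 and TIMP3 are higher with both inhibitors, whereas MMP24 and TIMP1 change with JQ1 and lie near their DMSO values with I-BET 762.

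Of the secreted MMPs, MMP2 fell with both inhibitors, MMP19 was lower in every treated library and MMP9 was called with neither. MMP2 (ENSG00000087245.13, chromosome 16, 55389700 to 55506691), the gelatinase that MMP14 activates, had normalized counts of 33.9, 31.4 and 36.4 with DMSO, 16.5, 19.6, 15 and 10.1 with JQ1, and 16.7, 14 and 18.7 with I-BET 762. No treated library reached 20 and no DMSO library was below 31. The log2 change was −1.13 (SE 0.26, adjusted p = 0.00118) with JQ1 and −1.0 (SE 0.28, adjusted p = 0.00591) with I-BET 762. MMP19 (ENSG00000123342.16, chromosome 12, 55835433 to 55842966), which cuts basement membrane proteins, counted 26.1, 32.4 and 30.9 with DMSO, 1.1, 2.18, 3.0 and 1.01 with JQ1, and 5.9, 3.01 and 5.91 with I-BET 762. All 4 JQ1 libraries had at most 3 reads, so their counts were at least 9.04-fold lower than the DMSO mean. That fold is taken against the highest 3-read value of a JQ1 library. These libraries held reads, so it describes the counts and does not bound the true level. The fitted log2 difference with I-BET 762 was −2.41 (SE 0.45). MMP19 shares 821 of its 4672 exon bases with TMEM198B on the opposite strand, whose means were 189, 182 and 209 with DMSO, JQ1 and I-BET 762. The other gelatinase, MMP9, stood at 11.8 ± 2.6 with DMSO, 13.7 ± 3.15 with JQ1 and 11.9 ± 1.97 with I-BET 762, with changes of 0.19 (−0.48 to 0.85) and 0.014 (−0.69 to 0.72), too scarce for smaller differences to be seen. It shares 430 of 2336 exon bases with SLC12A5-AS1 on the opposite strand, which had means of 39.1, 17.1 and 27.1.

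The collagenase, stromelysin and matrilysin genes with a row were at or near the floor of detection in every group. MMP7, MMP10, MMP1, MMP3, MMP12 and MMP13, which sit together on chromosome 11 from 102520508 to 102955732 (435 kb, GRCh38), had at most 7 reads in any library, and 0 of these 6 passed the filter. Of them MMP3, MMP7 and MMP13 had no more than 3 reads anywhere. The members with AP-1 motifs shown above, MMP7 and MMP10, belong to this block, and its other genes had no promoter window to search. These genes were not tested, so nothing is said about a change in them.

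Of the 3 TIMPs that passed the filter, TIMP3 rose with both inhibitors, TIMP1 rose with JQ1 and TIMP2 was called with neither. TIMP1 (ENSG00000102265.12, chromosome X, 47582408 to 47586789), a secreted inhibitor that acts weakly on the membrane-bound MMPs, had normalized counts of 2474, 2503 and 2372 with DMSO, 4529, 5221, 4984 and 5431 with JQ1, and 2693, 2467 and 2543 with I-BET 762. The JQ1 libraries were all at 4529 or more, and the I-BET 762 libraries overlapped the DMSO libraries. Its log2 change was 1.04 (SE 0.059, adjusted p = 2.38e-10) with JQ1, a 2.05-fold rise, and 0.067 (SE 0.063, adjusted p = 0.371) with I-BET 762, where it turned to −0.029 with equal library totals. TIMP3 (ENSG00000100234.12, chromosome 22, 32801705 to 32863041), the matrix-bound inhibitor that also blocks ADAM17 and several ADAMTS enzymes, counted 515, 531 and 462 with DMSO, 1402, 1376, 1372 and 1562 with JQ1, and 1175, 1324 and 1282 with I-BET 762. All 7 treated libraries were at 1175 or more and all DMSO libraries at 531 or less. It rose by 1.5 (SE 0.069, adjusted p = 2.18e-11) with JQ1 and 1.32 (SE 0.074, adjusted p = 6.00e-10) with I-BET 762 on the log2 scale. TIMP2 (ENSG00000035862.13, chromosome 17, 78852977 to 78925387), which takes part in MMP2 activation by MMP14, counted 3878, 3591 and 3553 with DMSO, 3160.2, 2979, 3549.6 and 3213 with JQ1, and 3015, 3049 and 3145 with I-BET 762. All treated libraries were below all DMSO libraries, at the closest 3550 in JQ1 replicate 19 against 3553, with log2 changes of −0.19 (SE 0.057, adjusted p = 0.00749) and −0.26 (SE 0.061, adjusted p = 0.00175), below the 1.5-fold threshold. TIMP4 had at most 8.32 normalized counts and was not tested. TIMP1, TIMP3 and TIMP4 each lie inside a synapsin gene on the other strand (SYN1, SYN3 and SYN2), and exon bases are shared only by TIMP4 and SYN2.

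As a description without a test, levels per kb of exon were set against each other within each library. The ratio of MMP14 to TIMP1 was 0.612 ± 0.0456 with DMSO, 0.158 ± 0.0168 with JQ1 and 0.343 ± 0.0153 with I-BET 762 (mean ± SD). That of MMP14 to TIMP2 was 1.75 ± 0.0631, 1.06 ± 0.0905 and 1.23 ± 0.0726. That of MMP14 to TIMP3, the pair that moved in opposite directions with both inhibitors, was 9.51 ± 0.967, 1.77 ± 0.0916 and 2.23 ± 0.199. All 3 ratios were lower in every treated library than in every DMSO library. Summed per kb, the tested MMPs went from 1626 ± 75 with DMSO to 1043 ± 73.3 with JQ1 and 1262 ± 31.1 with I-BET 762, and the 3 TIMPs from 2395 ± 71.6 to 4317 ± 277 and 2544 ± 59.1. MMP14 made up 63.7 ± 1.35%, 52.6 ± 1.9% and 48.2 ± 0.845% of the MMP sum. These are RNA levels and do not measure protein or activity.

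The abundant sheddase genes changed little. Among 8 tested ADAMs with a proteinase site, 1 rose (ADAM8) and 3 fell (ADAM12, ADAM19 and ADAM33) with each inhibitor, where 13.3% and 22.8% of all genes did with JQ1 and 8.96% and 17.9% with I-BET 762. ADAM9 had 10093, 10880.0 and 10765 with DMSO, 11925, 13105, 11354 and 11427 with JQ1, and 11985, 12247 and 12080.0 with I-BET 762, and ADAM15 had 6089, 5912 and 5769 with DMSO, 8544, 8406, 8738 and 8918 with JQ1, and 7642, 7493 and 7163 with I-BET 762 normalized counts. All treated libraries of both genes were above all DMSO libraries, yet the changes were small. ADAM9 moved by 0.17 (SE 0.053, adjusted p = 0.00756) and 0.19 (SE 0.056, adjusted p = 0.0071) on the log2 scale, and ADAM15 by 0.55 (SE 0.044, adjusted p = 1.37e-08) and 0.33 (SE 0.047, adjusted p = 1.75e-05). ADAM10, the sheddase of Notch and E-cadherin, moved by 0.22 and 0.22, and ADAM17, which releases TNF, by 0.30 and 0.16, with adjusted p from 2.54e-05 to 0.0116. The ADAM9 value with JQ1 became −0.011 with equal library totals. Under the alternatives, ADAM10 with JQ1 went down to 0.036 and ADAM17 with I-BET 762 to 0.064, with adjusted p up to 0.33 and 0.23. For ADAM10 with I-BET 762 and ADAM17 with JQ1 the adjusted p reached at most 0.0083 and 0.020. ADAM17 shares 1645 of its 15964 exon bases with IAH1 on the other strand, whose means were 1588, 1944 and 1837.

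ADAM33 (ENSG00000149451.19, chromosome 20, 3667965 to 3682246), a mesenchymal ADAM named as an asthma susceptibility gene, counted 249.9, 225 and 222 with DMSO, 34.1, 26.1, 13 and 29.4 with JQ1, and 44.3, 40.1 and 33.5 with I-BET 762. Every DMSO library had at least 222 and no treated library reached 45. The log2 change was −3.21 (SE 0.25, adjusted p = 1.13e-08) with JQ1 and −2.54 (SE 0.27, adjusted p = 7.31e-07) with I-BET 762, 9.23-fold and 5.82-fold lower. ADAM19 (ENSG00000135074.16, chromosome 5, 157395534 to 157575775), which can release neuregulin, counted 196, 162 and 173 with DMSO, 57.1, 39.2, 65 and 68 with JQ1, and 67.9, 84.2 and 84.7 with I-BET 762. It was lower in every treated library, with changes of −1.63 (SE 0.18, adjusted p = 6.12e-07) and −1.16 (SE 0.19, adjusted p = 8.29e-05). ADAM12 (ENSG00000148848.15, chromosome 10, 126012381 to 126388477), a sheddase of HB-EGF that marks activated mesenchymal cells, counted 33.9, 40.7 and 29.1 with DMSO, 2.2, 6.53, 7.0 and 4.06 with JQ1, and 13.8, 6.02 and 16.7 with I-BET 762. No treated library reached 17 and no DMSO library was below 29, with changes of −2.66 (SE 0.41, adjusted p = 2.23e-05) and −1.52 (SE 0.43, adjusted p = 0.00632). The filter limit given above holds for these values. ADAM8 (ENSG00000151651.16, chromosome 10, 133262420 to 133276868), best known from leukocytes, counted 81.4, 49 and 44.6 with DMSO, 113, 82.7, 118 and 109.5 with JQ1, and 81.7, 106 and 128 with I-BET 762. The DMSO library nearest the treated ones, replicate 13, stood at 81.4 beside a lowest treated value of 81.7, and the changes were 0.89 (SE 0.21, adjusted p = 0.00133) and 0.87 (SE 0.22, adjusted p = 0.00335).

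ADAM22, ADAM23 and ADAM11 lack a working proteinase site, and the first 2 are neuronal surface receptors for LGI proteins. ADAM22 (ENSG00000008277.15, chromosome 7, 87934143 to 88202889) counted 176, 164 and 170.2 with DMSO, 346, 360.1, 378 and 316 with JQ1, and 454, 438 and 443 with I-BET 762. The groups did not overlap, with I-BET 762 highest, and the changes were 1.04 (SE 0.084, adjusted p = 1.66e-08) with JQ1 and 1.38 (SE 0.090, adjusted p = 3.14e-09) with I-BET 762. ADAM23 (ENSG00000114948.13, chromosome 2, 206443532 to 206621127) counted 47.5, 48.1 and 49.1 with DMSO, 90.1, 83.8, 112 and 87.2 with JQ1, and 85.6, 87.2 and 82.7 with I-BET 762. All treated libraries were above 82 and all DMSO libraries below 50, with changes of 0.93 (SE 0.14, adjusted p = 2.49e-05) and 0.81 (SE 0.15, adjusted p = 2.75e-04). ADAM11 (ENSG00000073670.14, chromosome 17, 44758988 to 44781846) went the other way, with 457, 472 and 499.6 with DMSO, 196, 199, 198 and 225 with JQ1, and 247, 262 and 256 with I-BET 762. The JQ1 libraries were the lowest and the DMSO libraries the highest, without overlap between any groups, and the changes were −1.22 (SE 0.085, adjusted p = 2.80e-09) and −0.90 (SE 0.091, adjusted p = 4.33e-07). ADAM32, a reproductive tract ADAM, was scarce at 15.2 ± 4.56 with DMSO, 13.4 ± 5.89 with JQ1 and 16.5 ± 3.24 with I-BET 762 and its groups overlapped.

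**Figure D4:**
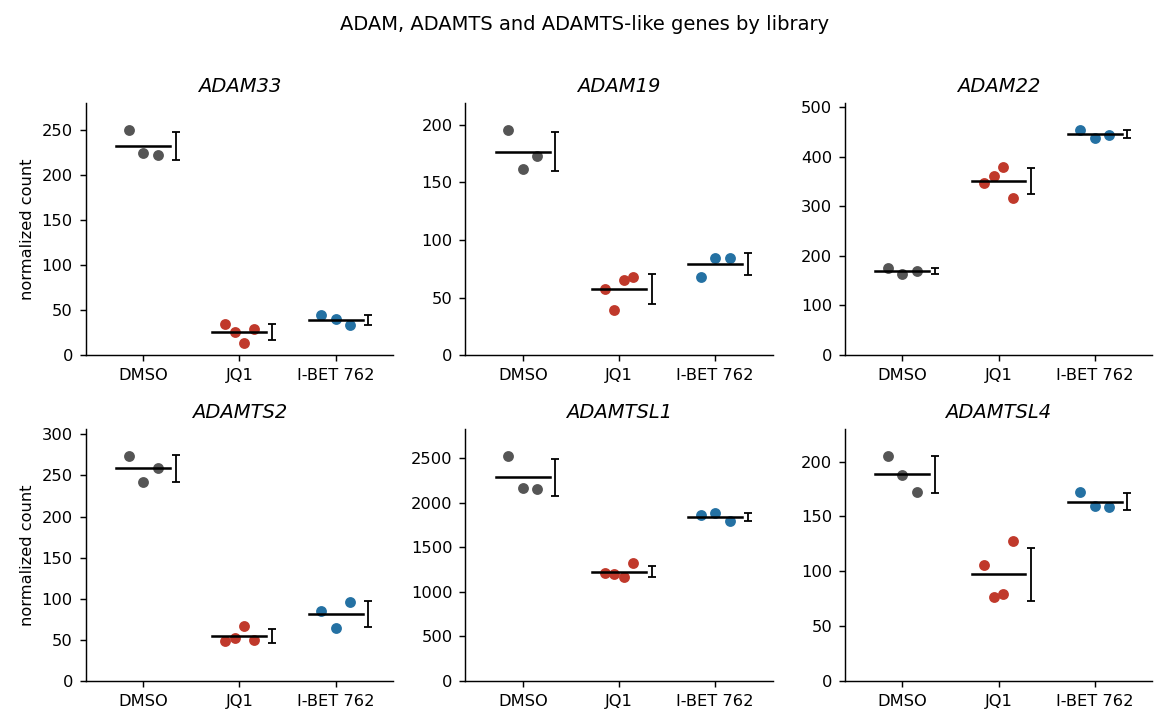
Normalized counts (linear axes from 0) of ADAM33, ADAM19, ADAM22, ADAMTS2, ADAMTSL1 and ADAMTSL4 in each library. Points are libraries, horizontal lines are group means and side bars are ± 1 SD. ADAM33, ADAM19 and ADAMTS2 are low with both inhibitors, ADAM22 is high with both, and ADAMTSL1 and ADAMTSL4 are lowest with JQ1.

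Among the ADAMTS genes, the procollagen processor ADAMTS2 and the microfibril-associated ADAMTS10 fell with both inhibitors, and ADAMTS17 rose with both. ADAMTS2 (ENSG00000087116.17, chromosome 5, 179110853 to 179345461), which removes the N-terminal propeptide of fibrillar procollagens, counted 274, 242 and 259 with DMSO, 48.3, 52.2, 67 and 49.7 with JQ1, and 85.6, 64.2 and 95.5 with I-BET 762. No treated library reached 96 and no DMSO library was below 242. The log2 change was −2.24 (SE 0.16, adjusted p = 3.41e-09) with JQ1 and −1.67 (SE 0.17, adjusted p = 4.76e-07) with I-BET 762, 4.73-fold and 3.17-fold lower. ADAMTS14, another procollagen processor, had 31.9 ± 6.71 with DMSO, 31.2 ± 8.02 with JQ1 and 40.9 ± 5.59 with I-BET 762, with overlapping groups. ADAMTS3, the last of that trio, had at most 5.91 and was not tested.

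ADAMTS10 (ENSG00000142303.14, chromosome 19, 8580240 to 8610735) counted 68.8, 45.3 and 53.7 with DMSO, 8.79, 6.53, 13 and 12.2 with JQ1, and 16.7, 5.01 and 11.8 with I-BET 762. All treated libraries were below 17 and all DMSO libraries above 45, with changes of −2.38 (SE 0.36, adjusted p = 2.23e-05) and −2.34 (SE 0.39, adjusted p = 7.97e-05). ADAMTS17 (ENSG00000140470.15, chromosome 15, 99971437 to 100342005), mutated like ADAMTS10 in Weill-Marchesani syndromes, counted 16.5, 14.8 and 11.8 with DMSO, 41.8, 28.3, 37 and 38.5 with JQ1, and 30.5, 27.1 and 20.7 with I-BET 762. Its treated libraries were all above 20 and its DMSO libraries below 17. The changes were 1.28 (SE 0.24, adjusted p = 1.67e-04) and 0.81 (SE 0.26, adjusted p = 0.0119), and without I-BET 762 replicate 21 the latter became 0.69 with an adjusted p of 0.0548. The pseudogene ADAMTS7P4 (ENSG00000218052.8, chromosome 15, 85255369 to 85270892) counted 11.6, 22.2 and 12.7 with DMSO, 2.2, 3.26, 1.0 and 1.01 with JQ1, and 5.9, 2.01 and 1.97 with I-BET 762. Every JQ1 library had at most 3 reads, so the counts were at least 4.71-fold lower than the DMSO mean by the same measure, with the same limit. The fitted log2 difference with I-BET 762 was −2.01 (SE 0.55). Its reads may be shared with near-identical copies and are uncertain. ADAMTS7 itself, which cuts cartilage oligomeric matrix protein, had 684 ± 21.9 with DMSO, 719 ± 115 with JQ1 and 788 ± 42.2 with I-BET 762 and was called with neither inhibitor.

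The proteoglycan-cleaving group was scarce. ADAMTS1, a versican-cutting enzyme, had 6.2 ± 3.63 with DMSO, 18.3 ± 5.29 with JQ1 and 8.23 ± 4.83 with I-BET 762, with log2 changes of 1.51 (SE 0.44, adjusted p = 0.00575) and 0.37 (SE 0.47, adjusted p = 0.51), so that only the JQ1 value was called. The filter limit given above holds for ADAMTS1. ADAMTS15, another enzyme of this kind, had 15.5 ± 3.97 with DMSO, 22.9 ± 8.53 with JQ1 and 30.7 ± 4.26 with I-BET 762, with 0.49 (SE 0.30, adjusted p = 0.147) and 0.96 (SE 0.32, adjusted p = 0.0151), where only the I-BET 762 value was called. That call was lost without DMSO replicate 13 (0.83, adjusted p = 0.0557) and without I-BET 762 replicate 22 (0.86, adjusted p = 0.0584), and the JQ1 value became called without JQ1 replicate 18 (0.69, adjusted p = 0.0408). For neither gene was the difference between the inhibitors called. Their neighbours on the chromosome, ADAMTS5 beside ADAMTS1 and ADAMTS8 beside ADAMTS15, had at most 1.82 and 4.92 normalized counts. ADAMTS13, the enzyme that cuts von Willebrand factor, went from 235 ± 39.2 to 160.1 ± 18 and 172 ± 10.1. Its log2 changes of −0.55 (SE 0.13, adjusted p = 0.00104) and −0.44 (SE 0.13, adjusted p = 0.00964) lay under the fold threshold, and the JQ1 value passed it with equal library totals (−0.73), with equal upper quartiles (−0.61), without DMSO replicate 14 (−0.66) and without JQ1 replicate 19 (−0.61).

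Of the ADAMTS-like genes, whose products bind fibrillin microfibrils and other matrix proteins, ADAMTSL1, ADAMTSL3 and ADAMTSL4 fell with JQ1, 3 of 4 tested where 22.8% of all genes fell. ADAMTSL1 (ENSG00000178031.18, chromosome 9, 17906563 to 18910950) counted 2531, 2168 and 2161 with DMSO, 1212, 1204, 1172 and 1322 with JQ1, and 1859, 1884 and 1796 with I-BET 762. The groups did not overlap, and the I-BET 762 libraries lay between the others. The log2 change was −0.89 (SE 0.063, adjusted p = 3.12e-09) with JQ1 and −0.30 (SE 0.067, adjusted p = 0.00101) with I-BET 762. ADAMTSL3 (ENSG00000156218.13, chromosome 15, 83654088 to 84039842) counted 44.6, 40.7 and 54.6 with DMSO, 17.6, 19.6, 19 and 22.3 with JQ1, and 37.4, 32.1 and 32.5 with I-BET 762. JQ1 libraries stood lowest and the I-BET 762 libraries below the DMSO libraries, with changes of −1.20 (SE 0.20, adjusted p = 6.76e-05) and −0.44 (SE 0.22, adjusted p = 0.095). ADAMTSL4 (ENSG00000143382.16, chromosome 1, 150549369 to 150560937), mutated in isolated lens dislocation, counted 205, 188 and 172 with DMSO, 105, 76.2, 79 and 128 with JQ1, and 172, 159 and 158 with I-BET 762. The JQ1 libraries were all below 130, and the other groups overlapped.

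The log2 change of ADAMTSL4 was −0.98 (SE 0.16, adjusted p = 4.55e-05) with JQ1 and −0.20 (SE 0.17, adjusted p = 0.324) with I-BET 762. ADAMTSL4 shares 736 of its 6432 exon bases with ADAMTSL4-AS1, whose row holds the same values as MCL1, with means of 13928, 27610 and 20038, and the part of that overlap in the ADAMTSL4 counts was not tested. ADAMTSL5 had 220.4 ± 15.9 with DMSO, 259 ± 46.1 with JQ1 and 261 ± 9.25 with I-BET 762 and was called with neither inhibitor. With I-BET 762 the call thresholds were passed by none of the 4 by limma, and ADAMTSL1 alone had a confidence interval that left out 0 (−0.45 to −0.16). ADAMTSL2 had at most 5.0 normalized counts.

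The 32 members below the filter had highest normalized counts between 0.91 and 13.65. MMP25 (13.7), ADAM21 (12.7) and ADAMTS6 (10.9) reached 10 in 1 or 2 libraries. ADAM20P1 (9.69), TIMP4 (8.32), ADAM20 (7.75), ADAMTS4 (7.62), MMP21 (6.59), ADAMTS7P3 (6.59), MMP10 (6.47), ADAMTS3 (5.91), MMP23B (5.91), MMP1 (5.81), ADAMTSL2 (5.0) and MMP23A (5.0) had highest counts of 5 to 10. ADAMTS8 (4.92), ADAM1B (4.84), ADAMTS16 (4.01) and MMP12 (4.0) stayed below 5. The remaining 13 had at most 3 reads in every library. They were MMP28 (3.0), ADAM5 (2.91), ADAMTS9 (2.73), ADAM29 (2.18), MMP7 (1.97), ADAMTS20 (1.85), ADAMTS5 (1.82), ADAMTS19 (1.01), MMP3 (1.01), MMP13 (1.01), ADAM7 (1.0), ADAM28 (0.984) and ADAM21P1 (0.91). The aggrecanase genes ADAMTS4 and ADAMTS5 and both collagenase genes with a row, MMP1 and MMP13, are thus among those not tested.

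JQ1 and I-BET 762 were compared with each other at the same dose and time over the 36 tested members, 1 comparison per gene. The thresholds were passed by 6 of them (16.7%, beside 5.31% of all tested genes), 1 higher with JQ1 where 1.73% of all genes were and 5 lower where 3.59% were. TIMP1 was 1.96-fold higher with JQ1, a log2 difference of 0.97 (SE 0.059, adjusted p = 5.74e-08). The others were lower with JQ1, with a log2 difference of −0.82 (SE 0.052, adjusted p = 6.98e-08) for MMP24, −0.78 (SE 0.16, adjusted p = 0.00226) for ADAMTSL4, −0.76 (SE 0.20, adjusted p = 0.0117) for ADAMTSL3 and −0.59 (SE 0.063, adjusted p = 9.27e-06) for ADAMTSL1. In these 5 genes, already selected by their call, no JQ1 library overlapped an I-BET 762 library. The share without overlap between the inhibitors over all genes was not computed. ADAM12 differed by −1.13 (SE 0.41, adjusted p = 0.0491), with overlapping libraries, and passed by a narrow margin. Its call was lost under 13 of 18 alternatives, among them the omission of any DMSO library, of JQ1 replicates 17 or 20 or of I-BET 762 replicates 21 or 23 (adjusted p from 0.0507 to 0.209 over the 13). ADAMTSL1 stood just past the fold threshold and fell just short of it, at −0.57 to −0.58, without JQ1 replicate 17, 18 or 19 or I-BET 762 replicate 21 or 22. ADAMTSL3 lost its call without I-BET 762 replicate 21 (−0.70, adjusted p = 0.0585).

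Of the 16 members called in the same direction with both inhibitors, 15 had the larger change with JQ1, ADAM22 being the exception. The 16 include MMP19 and ADAMTS7P4, which are descriptions only. The matching share over all genes was not computed, and over all genes JQ1 also gave more calls, 5358 beside 3991. An adjusted p under 0.05 for the difference itself was found for 4 of the 16. Among all 14839 tested genes, 1973 were higher and 2074 lower with JQ1 at that adjusted p. ADAM22 rose less with JQ1, a log2 difference of −0.35 (SE 0.084, adjusted p = 0.00656). ADAM11, ADAMTS2 and ADAM12 fell further with JQ1, with a difference of −0.32 (SE 0.085, adjusted p = 0.0116) for ADAM11 and −0.57 (SE 0.16, adjusted p = 0.0142) for ADAMTS2. For the rest the adjusted p missed the threshold. The unadjusted 95% interval of the difference was −0.29 to −0.012 for MMP14 (adjusted p = 0.101), 0.011 to 0.46 for MMP17 (adjusted p = 0.112), 0.032 to 0.33 for TIMP3 (adjusted p = 0.067) and −1.20 to −0.13 for ADAM33 (adjusted p = 0.0618) on the log2 scale, intervals that leave out 0 before the adjustment. Some values moved past the thresholds under an alternative. They were ADAM33 (−0.82 without JQ1 replicate 17, −0.76 without JQ1 replicate 20, −0.75 with equal totals), ADAMTS1 (1.54 without I-BET 762 replicate 23, 1.14 without DMSO replicate 14 or with only both inhibitor groups in the model, 0.84 with a pseudocount of 5), ADAMTS2 (−0.74 without I-BET 762 replicate 22, −0.68 without JQ1 replicate 19, −0.66 with equal totals, −0.60 with equal upper quartiles) and MMP19 (−1.28 without JQ1 replicate 19, −1.15 with equal totals, −1.09 without the intensity trend). MMP19 had at most 3 reads in a JQ1 library and 6 in an I-BET 762 library, so its difference between the inhibitors lies near the floor.

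Genes that activate, restrain, escort or are cut by these enzymes were followed through a list of 47 partners, of which 46 had a row and 36 were tested. TLL1 was not analysed here. With JQ1, 10 rose and 11 fell, and with I-BET 762, 7 rose and 11 fell, which is 21 and 18 of the 36 tested, beside 36.1% and 26.9% of all genes. AREG, an EGF receptor ligand gene counted among the 10, passed the filter only through JQ1 libraries and so had to be higher there, which leaves 9 of 35. Between the inhibitors, PCSK5 and PLAUR were among those higher and EPGN, PAPLN and TSPAN15 lower with JQ1. HBEGF, PCSK5, PLAU, SERPINE2, TLL2, TSPAN5 and TSPAN33 rose with both, and EPGN, EREG, FURIN, LRP1, PAPLN, PCSK6, SPINT1, SPOCK1, THSD4 and TSPAN17 fell with both. Counts below are group means ± SD with 3, 4 and 3 libraries.

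The proprotein convertases, which remove the prodomains of membrane MMPs and ADAMs, went in both directions. FURIN had 506 ± 38.3 with DMSO, 282 ± 49 with JQ1 and 235 ± 14.6 with I-BET 762, with log2 changes of −0.86 (SE 0.12, adjusted p = 7.35e-06) and −1.10 (SE 0.13, adjusted p = 1.71e-06), and PCSK6 fell, with −1.16 and −1.45. PCSK5 rose, from 38.8 ± 11.7 to 279.7 ± 15.8 and 148 ± 5.97, by 2.85 (SE 0.15, adjusted p = 1.29e-10) and 1.94 (SE 0.16, adjusted p = 5.85e-08). PLAU, the urokinase gene whose product starts plasmin formation and so MMP activation, had 3948 ± 81.8 with DMSO, 10359 ± 388 with JQ1 and 8049.5 ± 73.3 with I-BET 762 and rose by 1.39 (SE 0.043, adjusted p = 2.45e-13) and 1.03 (SE 0.046, adjusted p = 5.17e-11). The urokinase receptor gene PLAUR stood under the fold threshold against DMSO, at 0.55 and −0.34, and differed between the inhibitors by 0.89 (SE 0.065, adjusted p = 2.85e-07).

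Of the inhibitors, SERPINE2, a serpin that blocks urokinase and thrombin, rose from 126 ± 13.1 to 625 ± 25.2 and 417 ± 21.8, by 2.31 and 1.72. SPINT1, a Kunitz inhibitor of serine proteinases, fell, with log2 changes of −1.98 and −1.81, as did SPOCK1, a matrix proteoglycan gene, with −1.95 and −1.61. RECK, a membrane-anchored inhibitor of MMPs, held 1368 ± 7.16 with DMSO, 1367 ± 49.6 with JQ1 and 1324 ± 32.6 with I-BET 762, with log2 changes of −0.0017 (−0.11 to 0.11) and −0.048 (−0.16 to 0.067). LRP1, the receptor that takes up MMP, ADAMTS and TIMP proteins, went from 1558 ± 264 to 583 ± 103 and 644 ± 4.3, log2 changes of −1.42 (SE 0.12, adjusted p = 2.29e-08) and −1.26 (SE 0.13, adjusted p = 3.98e-07). TLL2, a tolloid-like proteinase of another family, rose by 1.71 and 1.27.

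The tetraspanins that carry ADAM10 moved both ways: TSPAN5 rose by 1.96 and 2.04, TSPAN33 by 1.24 and 1.38, and TSPAN17 fell, with −0.79 and −0.74. The ADAM17 escorts RHBDF1, RHBDF2 and FRMD8 were under the fold threshold, with log2 changes from −0.30 to 0.38. Of the EGF receptor ligands that ADAMs release, HBEGF rose from 102 ± 3.23 to 364 ± 32.5 and 271 ± 25.8, by 1.82 (SE 0.10, adjusted p = 1.75e-10) and 1.4 (SE 0.11, adjusted p = 2.12e-08). EPGN and EREG fell, with log2 changes of −1.96 and −1.28 for EPGN and −0.80 and −0.87 for EREG. Of the ADAMTS relatives, the papilin gene PAPLN had changes of −2.03 and −1.21, and THSD4, whose product binds fibrillin, −0.69 and −0.87.

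**Figure D5:**
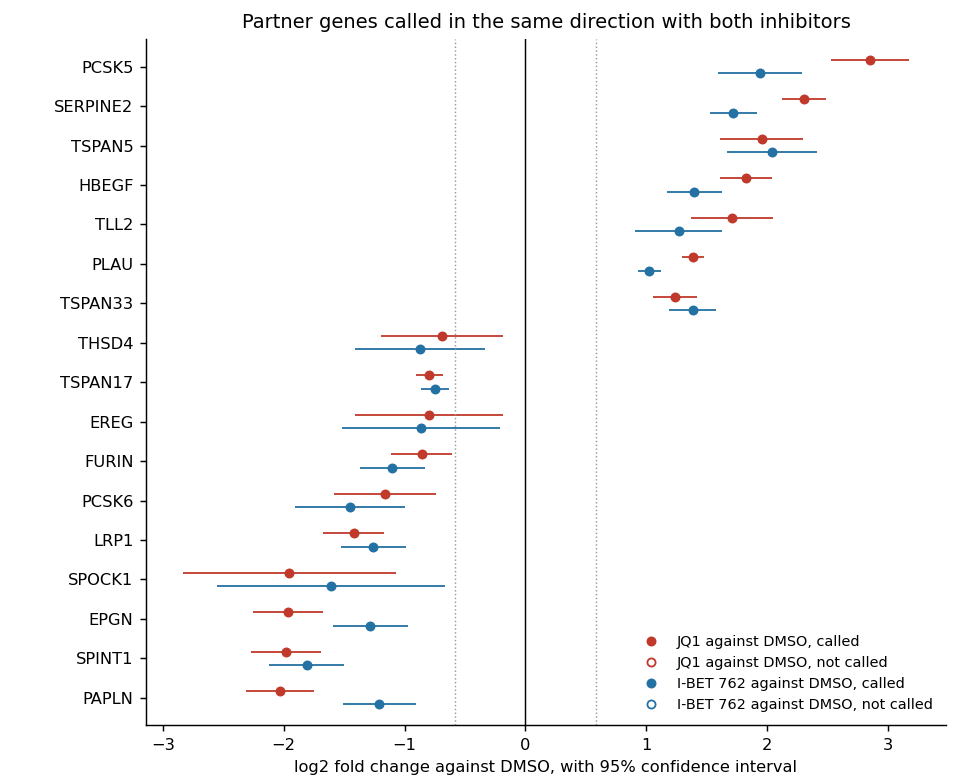
Log2 fold change against DMSO, with 95% confidence intervals, of the partner genes called in the same direction with both JQ1 (red) and I-BET 762 (blue), ordered by the JQ1 value. Filled circles mark called values, and dotted lines mark the 1.5-fold threshold. PCSK5 and SERPINE2 rose most with JQ1, and PAPLN and SPINT1 fell most.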

How the data were processed

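RNA was sequenced from strand-specific total RNA libraries of SK-UT-1 cells. Per the labels and the study's methods, the authors checked reads with FastQC 0.73, trimmed them with Trimmomatic, aligned them to hg38 with HISAT2 2.2.1, counted them on Gencode V41 genes with featureCounts 2.0.3, normalized with DESeq2 and excluded outlier samples. The strand setting of the counting is not given in the sources used here. The table the authors deposited is on a log2 scale, 1 being added to each normalized count first, and runs from 0.0 to 20.48. Undoing the log2 gave whole multiples of 1 step for 99.75% to 99.78% of values per library (tolerance 0.05 of a read), which gave the reads and scaling factors. All sample columns were mapped to a library.

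Differences came from limma 3.58.1 (R 4.3.3, intensity trend) on the log2 scale, with the 10 libraries in 1 model. Code was tested on simulated data first. Tables and figures used Python 3.11.15, numpy 2.4.6, pandas 2.3.3 and matplotlib 3.10.9. Gene positions and exon lengths came from Gencode V44 (GRCh38), promoters from RefSeq (GRCh38.p14).

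Every tested member is named. Library values are given for members called with both inhibitors, members called between inhibitors, the 5 most abundant members per kb with DMSO, and tested TIMPs. Members called with 1 inhibitor are given by means. Partners called with both are named, and PLAUR, TSPAN15, RECK and the ADAM17 escorts were named after their values were seen. One partner's values are not reported here. Members, roles and lists were chosen with earlier results of these data known. Alternatives were pseudocounts of 0.5 and 5, other filters and scalings, no trend, fewer groups, other fold thresholds, limma-voom on recovered reads, and each library left out in turn.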

Additional observations from a re-analysis of the deposited data

Results flagged for a closer look

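Within the 4 JQ1 libraries, the 36 tested members were examined for a library far from the others, and 4 were found. Chance alone gives such a gap in about 1 in 20 groups. JQ1 replicate 20 stood above the others for ADAM11, at 225.16 normalized counts beside 195.59 to 199.11, and for TIMP3, at 1561.9 beside 1371.6 to 1402.1. JQ1 replicate 18 stood below the others for ADAMTS7, at 547.27 beside 758.66 to 787.35. JQ1 replicate 17 stood below them for MMP16, at 6.5929 beside 8.7042 to 9.1282. Leaving these libraries out changed no call for ADAM11, TIMP3, ADAMTS7 or MMP16 against DMSO.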

How the results depend on the processing

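No paired analysis was possible because the replicate numbers 13 to 24 all differ between the groups. The planned edgeR and DESeq2 fits were not run, and limma-voom was the only fit on the recovered reads. Of 45 called log2 changes, 40 kept their call at the 1.5-fold threshold under the 18 or 19 alternatives run for each, and none changed sign. The 5 that lost it, and the 6 gained, are given beside their genes in the report. With a filter on mean normalized counts (100 or more), which tests fewer genes, 19 members and 26 partners were tested, and members called were 4 higher and 6 lower with JQ1, 3 and 3 with I-BET 762, and 3 lower between inhibitors, and partners called lower were 7 and 6, beside 13.1% higher and 17.3% lower of 11072 genes with JQ1, 8.05% and 13.1% with I-BET 762, and 2.38% lower between inhibitors. Without a fold threshold, 12 members were higher with I-BET 762, 3 higher and 9 lower between inhibitors, and 9 partners higher between them. Of all 14839 genes, 4434 were then higher with I-BET 762, and 1973 were higher and 2074 lower between inhibitors. Over 2-fold, members called were 6 higher and 10 lower with JQ1 and 3 and 8 with I-BET 762, 0 higher and 1 lower between inhibitors, 6 and 7 partners lower with JQ1 and I-BET 762, and 0 partners higher and 0 lower between inhibitors. Of all 14839 genes, 793 were then higher and 2165 lower with JQ1, 529 and 1579 with I-BET 762, and 71 and 135 between inhibitors. Between inhibitors, 2 members were higher with a pseudocount of 5 or only those groups in the model, and 8 lower with equal totals. The counts over all genes were 252 and 251 higher, and 782 lower. Leaving out 1 library gave 1 to 2 higher (2 without DMSO replicate 14 or I-BET 762 replicate 23) and 2 to 6 lower (2 without I-BET 762 replicate 21). Over all genes it gave 197 to 316 higher and 406 to 583 lower.

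Signs turned only for values that were not called. With equal totals these were ADAM9 (−0.011), ADAMTS7 (−0.13) and MMP15 (−0.10) with JQ1, MMP9 (−0.075) and TIMP1 (−0.029) with I-BET 762, and ADAM10 (−0.083), ADAM8 (−0.070) and TIMP2 (−0.02) between inhibitors. With equal upper quartiles they were ADAMTS7 (−0.0093) with JQ1, MMP9 (−0.019) with I-BET 762, and ADAM10 (−0.022) and ADAM8 (−0.0097) between inhibitors. Leaving out 1 library, values ran from −0.22 to 0.13 for ADAMTS14 with JQ1. With I-BET 762 they ran from −0.032 to 0.35 for ADAM32, −0.027 to 0.75 for ADAMTS1 and −0.090 to 0.17 for MMP9. Between inhibitors they ran from −0.018 to 0.024 for ADAM10, −0.15 to 0.17 for ADAM8, −0.066 to 0.0034 for ADAM9, −0.48 to 0.30 for ADAMTS10, −0.12 to 0.087 for ADAMTSL5, −0.52 to 0.28 for MMP16 and −0.25 to 0.044 for MMP2. The cause was not tested. Depth limits the members near 10 normalized counts, and 3 or 4 libraries a group limit all intervals.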
